A study of Mus musculus with 6 samples.

Results

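The genes described here are the 44, of 21878 genes in the deposited table, whose pathway text in that table holds the KEGG term for aminoacyl-tRNA biosynthesis. They were divided by symbol and product text. A symbol ending in 2 after "ars", or a product named as mitochondrial, put 18 genes in the mitochondrial set, which is 17 synthetases and the formyltransferase Mtfmt. The other 26 genes were 21 cytosolic synthetase genes and 5 genes of further steps, Gatb, Gatc, Qrsl1, Pstk and Sepsecs. The cells were wild-type C57BL/6 mouse macrophages, grown from marrow with M-CSF, the macrophage growth factor, at 50 ng/mL and then kept for 48 h across a membrane with 0.4 µm pores from LLC cells, a mouse lung carcinoma line. After a change of medium, 3 cultures were given the plant sesquiterpene β-elemene at 100 µg/mL and 3 were given the same volume of phosphate-buffered saline (PBS), each for 24 h. The sources used here give neither the age of the mice nor whether marrow was pooled, and both groups had met the carcinoma cells. RNA was sequenced in bulk.

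Aminoacyl-tRNA synthetases join each amino acid to its own transfer RNA, and so set the letters of the genetic code. Most amino acids are served by 1 nuclear gene for the cytosol and another for the mitochondrion, both translated in the cytosol, while Gars and Kars each make an enzyme for both places. Several cytosolic synthetases sit in a multisynthetase complex. Many are induced with the transcription factor ATF4 when amino acids run short, and the tryptophan enzyme is known as an interferon-gamma-induced gene in human cells.

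The libraries held 20344299, 18916844 and 20550078 counts in β-elemene replicates 1, 2 and 3, and 20524959, 20729887 and 20678051 counts in PBS replicates 1, 2 and 3. The 44 genes together took 27003 to 31030 of these counts in the β-elemene libraries and 49844 to 50521 in the PBS libraries. All 44 passed the filter on low counts, and none was at 0 in any library. Levels are counts scaled to a common total (CPM) after TMM scaling, which sets libraries to a common level on the assumption that most genes do not differ. Each log2 fold change has β-elemene on top and PBS below. A gene passed at an edgeR quasi-likelihood p below 0.05 after Benjamini-Hochberg adjustment over the 11459 genes tested. Since 76.7% of these genes passed, the assumption behind TMM is in doubt here, and levels and the signs of small changes depend on it. The labels do not say that replicates came from separate mice, so the p-values rest on variation among the 6 libraries that may be purely technical. The 10 macrophage markers were present, with summed levels of 17185 to 17752 CPM in the β-elemene libraries and 13848 to 14859 CPM in the PBS libraries. They did not move together, with 7 higher and 3 lower, at log2 fold changes of -3.66 to 2.86. Of all genes tested, 36.6% were higher and 40.2% lower. With library size alone 4 of these markers were higher and 5 lower, so the direction of these sums depends on the scaling. The 8 carcinoma and epithelial markers summed to at most 0.586 CPM with β-elemene and at most 1.64 CPM with PBS, and Krt19 and Cldn4 had no count in any library. The 7 neutrophil markers, of which 5 reached 1 CPM in a group, summed to 22.3 to 26.0 CPM with β-elemene and 9.32 to 12.4 CPM with PBS. Of the 5 neutrophil markers tested, 3 rose, 1 fell and 1 did not pass, at -3.35 to 4.29. The 6 dendritic cell markers, most of whose level was Itgax, which macrophages also express, summed to 923 to 1076 CPM with β-elemene and 1222 to 1309 CPM with PBS. B cell markers summed to at most 1.90 CPM with β-elemene and 4.45 CPM with PBS, and T and NK cell markers to at most 0.674 CPM with β-elemene and 0.156 CPM with PBS. The groups overlapped for the sum of the stromal markers, at 18.3 to 25.4 CPM with β-elemene and 15.3 to 19.6 CPM with PBS. Single stromal markers differed, however. Of the 6 tested, 3 fell, 1 rose and 2 did not pass, with log2 fold changes of -6.68 to 3.06. The part of these cells in the results was not tested. In bulk RNA, fewer cells of a type and less RNA per cell cannot be told apart.

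Most tRNA-charging genes were lower in the β-elemene libraries, and 4 cytosolic synthetases, Wars, Kars, Farsa and Rars, were higher. Of the 44, 34 fell, 4 rose and 6 did not pass, where 40.2% of all genes tested fell and 36.6% rose, 76.7% in either direction. The share that fell was 77.3% of these genes, and 13 of them fell at least 2-fold, or 29.5%, where 18.3% of all genes tested did so. For 39 of the 44, or 88.6%, the libraries of the groups were fully separate, against 79.9% of all genes tested. The median log2 fold change was -0.65 over the 44 genes and -0.06 over all genes tested. These directions depend in part on the scaling. With library size alone, which moves the median of all genes by -0.64, 41 of the 44 were lower and 2 were higher, and 69.8% of all genes were then lower and 18.9% higher. Wars and Kars were the 2 that stayed higher, while Farsa and Rars turned lower.

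**Figure D1:**
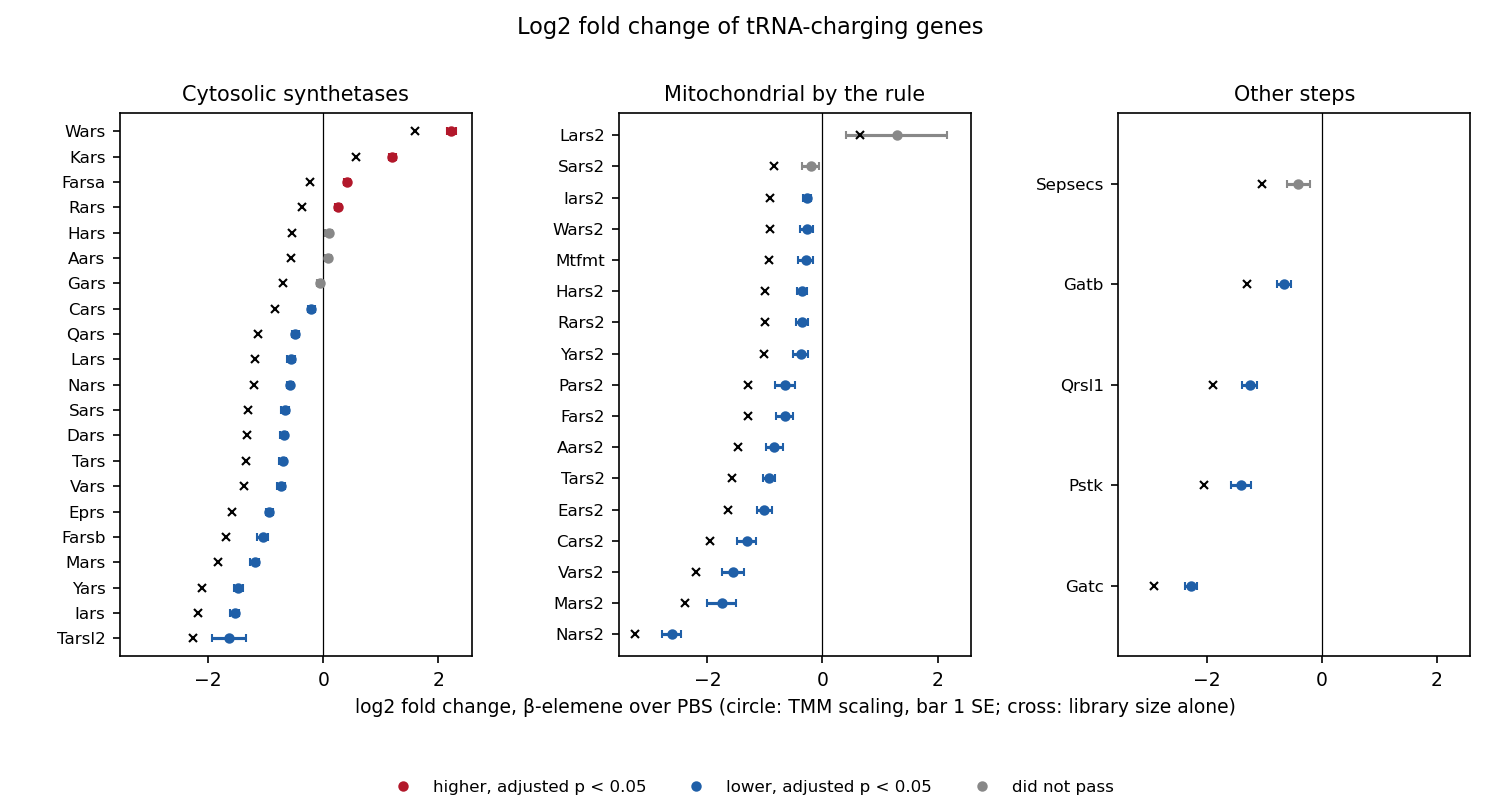
Log2 fold change of β-elemene over PBS (horizontal axis) for the genes (vertical axis), in 3 panels for the cytosolic synthetases, the mitochondrial set and the other steps. Circles with bars of 1 SE are from TMM scaling, coloured by the edgeR call, and crosses are from library size alone. Wars at 2.23 and Kars at 1.20 lie to the right of 0 on both scalings, Nars2 at -2.62 lies furthest left, and Lars2 has the widest bar.

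Of the 21 cytosolic synthetases, 4 rose, 14 fell and 3 did not pass, with a median log2 fold change of -0.57. Wars, which charges tryptophan (chromosome 12, 108860030 to 108894175, GRCm38.p6), had 236, 205 and 248 CPM in β-elemene replicates 1, 2 and 3, against 48.6, 47.5 and 51.0 CPM in PBS replicates 1, 2 and 3. Every β-elemene library was thus above every PBS library, and on the log2 scale the gene rose by 2.23 (SE 0.07; edgeR, adjusted p = 7.00e-12). The gene shares 544 bases of its locus with Wdr25 on the opposite strand. Kars, which charges lysine in both compartments (chromosome 8, 111993439 to 112011354), had 151, 145 and 156 CPM in the β-elemene libraries, against 66.2, 62.0 and 68.4 CPM in the PBS libraries. These groups did not overlap either, and on the log2 scale the gene rose by 1.20 (SE 0.06; edgeR, adjusted p = 4.48e-10). Rars, the arginine enzyme, had 248, 252 and 268 CPM with β-elemene and 211, 213 and 217 CPM with PBS. Its rise of 0.26 (SE 0.05, edgeR adjusted p = 5.94e-04) held only relative to the typical gene, since it was -0.38 with library size alone and -0.05 with the upper quartile.

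The 14 cytosolic synthetases that fell had log2 fold changes of -1.63 to -0.20. Iars, the isoleucine enzyme (chromosome 13, 49682130 to 49734267), had 30.0, 34.9 and 29.7 CPM in the β-elemene libraries, against 93.1, 87.0 and 95.2 CPM in the PBS libraries. The 2 groups lay well apart, and on the log2 scale the gene fell by 1.54 (SE 0.07; edgeR, adjusted p = 3.05e-10). Yars, the tyrosine enzyme (chromosome 4, 129189734 to 129219240), had 17.9, 19.3 and 15.6 CPM with β-elemene and 49.4, 48.1 and 49.2 CPM with PBS. It fell by 1.48 on the log2 scale (SE 0.08), again with no overlap. Mars, which charges methionine for initiation and elongation alike, had 15.01, 14.4 and 15.6 CPM with β-elemene and 36.1, 32.6 and 34.0 CPM with PBS. It fell by 1.19 (SE 0.08), and its locus shares 68 bases with Ddit3 on the opposite strand. Tarsl2, a second threonine enzyme gene expressed at a low level, had 1.54, 2.21 and 0.858 CPM with β-elemene and 4.88, 5.87 and 3.51 CPM with PBS. It fell by 1.63 with the widest error of the 21 genes (SE 0.30, edgeR adjusted p = 2.89e-04), and 923 bases of its locus lie in Tm2d3 on the same strand.

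Eprs, the fused glutamate and proline enzyme, fell by 0.94, and Vars, Tars, Dars, Sars, Nars, Lars and Qars, the enzymes for valine, threonine, aspartate, serine, asparagine, leucine and glutamine, had log2 fold changes of -0.73 to -0.49. Farsb, described below, completed the 5 cytosolic synthetases that fell at least 2-fold, or 23.8% beside 18.3% of all genes tested. Cars, the cysteine enzyme, fell least, by 0.20 (SE 0.07, edgeR adjusted p = 0.0155), and this call was lost without β-elemene replicate 2 (-0.12) or PBS replicate 3 (-0.18) and with DESeq2 (-0.16, adjusted p = 0.0972; 4.52e-08 to 0.111 over all alternatives). Gars, Aars and Hars, for glycine, alanine and histidine, did not pass, at -0.06 (SE 0.06), 0.08 (SE 0.05) and 0.10 (SE 0.06). Aars shares 1326 bases of its locus with Exosc6 on the same strand. The group means of Gars, Aars and Hars were 67.6, 119 and 66.7 CPM with β-elemene and 70.4, 113 and 62.5 CPM with PBS. All 3 were lower with library size alone, at -0.70, -0.56 and -0.54. With median-of-ratios size factors in edgeR, Hars instead passed as higher, at 0.14 (adjusted p = 0.0419; 1.28e-06 to 0.283 over all alternatives), which made 5 cytosolic synthetases higher.

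**Figure D2:**
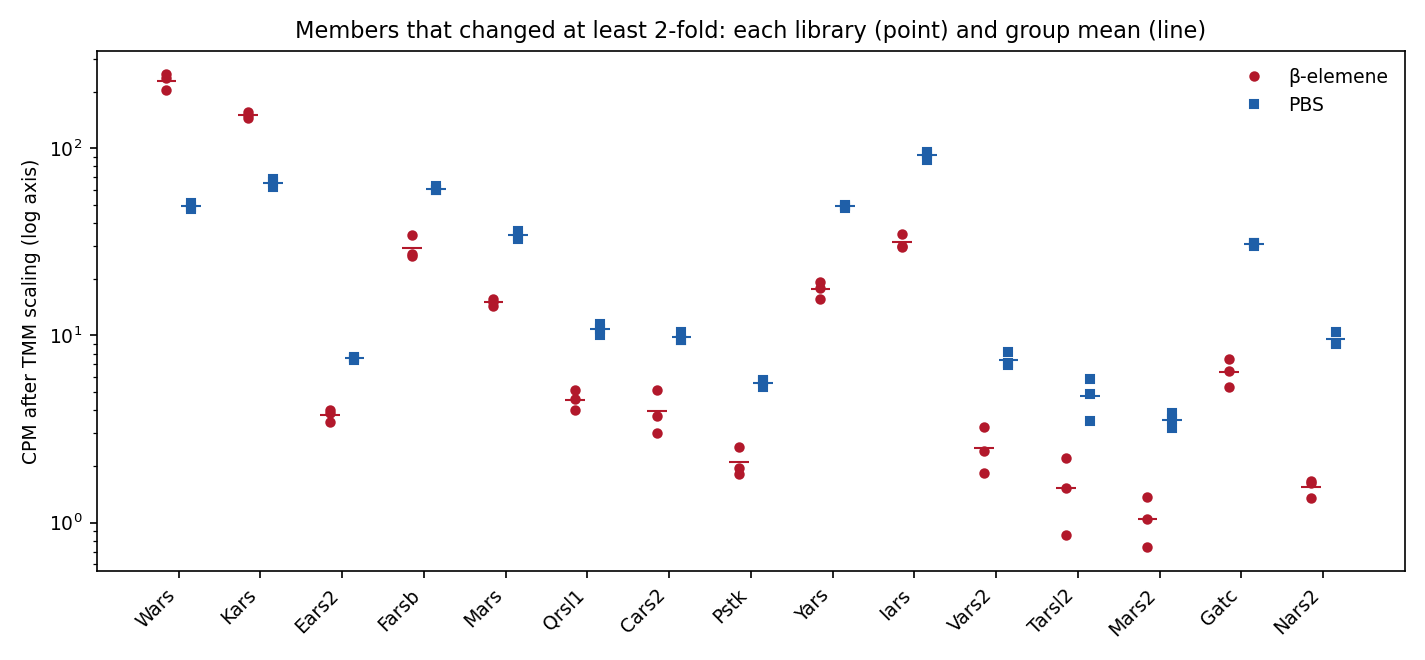
Level of each gene that changed at least 2-fold, in CPM after TMM scaling on a log axis, with genes along the horizontal axis from the highest to the lowest log2 fold change. Each point is 1 library, β-elemene left of PBS, and the line is the mean of 3 libraries. The groups do not overlap for any of these 15 genes, and only Wars and Kars are above PBS.

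Divided by transcript length, the order of the cytosolic levels differed between the groups. Rars was the most abundant in both, at 121 ± 4.96 CPM per kb with β-elemene and 101 ± 1.30 with PBS (SD, n = 3 each). Wars ranked 2 of 21 with β-elemene at 81.1 ± 7.78 CPM per kb and 14 of 21 with PBS at 17.3 ± 0.643. Kars ranked 3 with β-elemene and 5 with PBS. Nars ranked 4 with β-elemene at 43.6 ± 0.720 CPM per kb and 2 with PBS at 64.9 ± 1.94. Iars ranked 18 with β-elemene and 12 with PBS, and Mars and Tarsl2 were the lowest in both groups. Wars alone made up 13.3% to 15.7% of the summed CPM of the 21 genes in the β-elemene libraries and 2.93% to 3.11% in the PBS libraries. The summed CPM was 1546 ± 24.4 with β-elemene and 1629.8 ± 10.9 with PBS (SD, n = 3 each), and without Wars and Kars it was 1165 ± 24.3 with β-elemene and 1515 ± 5.96 with PBS. These sums rest on TMM scaling, whose factors were 0.794 to 0.812 in the β-elemene libraries and 1.24 to 1.26 in the PBS libraries. With library size alone 19 of the 21 genes passed as lower and 2 as higher.

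The fixed lists of cytosolic synthetases overlap, so their counts are not separate results. They stand beside 40.2% of all genes tested that fell and 36.6% that rose. Of 12 that are described as ATF4 or integrated stress targets, 1 rose, Wars, 9 fell and 2 did not pass, with a median log2 fold change of -0.62. Of the 9 others, 3 rose, 5 fell and 1 did not pass, with a median of -0.49. With library size alone, 11 of the 12 and 8 of the 9 were lower, and 1 of each was higher. Among the 8 that belong to the multisynthetase complex, Kars and Rars rose and 6 fell, with a median of -0.62. The complex's scaffold genes, which are not among the 44, moved in different directions. Aimp2 fell by 0.74 (SE 0.10), Eef1e1 rose by 0.32 (SE 0.07) but was -0.31 with library size alone, and Aimp1 did not pass at -0.13 (SE 0.08). Of the 10 cytosolic enzymes of class I, which share a Rossmann fold, 2 rose and 8 fell, and of the 11 of class II, 2 rose, 6 fell and 3 did not pass, with medians of -0.64 and -0.57.

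RefSeq promoters (GRCm38.p6, 250 bases before to 50 after the start) were at hand for 32 of the 44 genes. Those without one included Cars, Gatb, Hars, Hars2, Lars, Nars, Pars2, Rars, Sepsecs, Vars and Wars. Both strands were searched for 4 motifs. The amino acid response element of ATF4, TGATGNAA, occurred in 5 of 32 promoters, or 15.6%, and in 4.51% of the promoters of all 27025 genes in the table. The 5 were those of Aars, Gars, Iars, Tars and Yars, of which Iars, Tars and Yars fell and Aars and Gars did not pass. The STAT element TTCNNNGAA was in 4 promoters, or 12.5%, against 9.55% of all, namely those of Aars, Kars, Mtfmt and Nars2. The E box CACGTG was in 5, or 15.6%, against 8.09%, and the interferon-stimulated response element was in 1, that of Qars, or 3.13%, against 3.99%. A match describes these letters in this window and is not evidence of binding.

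The promoters of Aars, Iars, Yars and Kars are shown because each holds a match and the genes differ in outcome: Aars did not pass, Iars and Yars fell, and Kars rose. Capitals mark all matches, and no 2 of them overlap. Positions count from the start, with the base before it as -1 and no 0. In Aars (chr8:111033592-111033891, plus strand) they are an E box at -146, the ATF4 element at -112 and 10, and the STAT element at -88. In Iars (chr13:49681880-49682179, plus strand) they are an E box at -69 and the ATF4 element at 8. In Yars (chr4:129189653-129189952, plus strand) there is the ATF4 element at 4, and in Kars (chr8:112011305-112011604, minus strand) the STAT element at -9. The starts used for Aars and Yars lie inside their annotated genes, which begin at 111027778 and 129189734.
Aars: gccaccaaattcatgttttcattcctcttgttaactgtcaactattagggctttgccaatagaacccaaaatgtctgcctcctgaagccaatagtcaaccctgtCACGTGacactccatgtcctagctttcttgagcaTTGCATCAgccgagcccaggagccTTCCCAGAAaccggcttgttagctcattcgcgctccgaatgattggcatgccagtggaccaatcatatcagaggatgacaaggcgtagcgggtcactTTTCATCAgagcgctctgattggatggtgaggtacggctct
Iars: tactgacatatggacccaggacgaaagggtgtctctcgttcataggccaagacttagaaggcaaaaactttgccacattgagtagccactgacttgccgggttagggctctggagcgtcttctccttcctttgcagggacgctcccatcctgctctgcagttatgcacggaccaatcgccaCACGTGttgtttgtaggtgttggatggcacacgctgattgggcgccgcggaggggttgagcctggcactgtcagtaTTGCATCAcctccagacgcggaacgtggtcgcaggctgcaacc
Yars: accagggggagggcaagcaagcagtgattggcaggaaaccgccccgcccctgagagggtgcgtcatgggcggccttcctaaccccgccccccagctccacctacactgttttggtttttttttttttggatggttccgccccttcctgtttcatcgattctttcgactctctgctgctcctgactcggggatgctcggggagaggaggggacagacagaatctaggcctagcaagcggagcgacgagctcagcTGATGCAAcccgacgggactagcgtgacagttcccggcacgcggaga
Kars: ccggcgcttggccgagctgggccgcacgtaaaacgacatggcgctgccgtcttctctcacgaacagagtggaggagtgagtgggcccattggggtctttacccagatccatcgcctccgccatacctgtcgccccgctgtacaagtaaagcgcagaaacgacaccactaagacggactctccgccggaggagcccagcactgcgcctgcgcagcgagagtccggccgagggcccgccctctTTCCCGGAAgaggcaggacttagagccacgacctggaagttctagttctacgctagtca

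Of the 18 mitochondrial genes, 16 fell, 2 did not pass and none rose, with a median log2 fold change of -0.60. The share that fell was 88.9%, where 40.2% of all genes tested fell and 36.6% rose. With library size alone 17 were lower and none was higher, beside 69.8% and 18.9% of all genes. No gene of the 18 was higher at an unadjusted edgeR p below 0.05 either, and DESeq2 and limma-voom called 0 higher as well. The 5 that fell at least 2-fold, or 27.8% beside 18.3% of all genes tested, were the enzymes for asparagine, methionine, valine, cysteine and glutamate. Nars2, for asparagine (chromosome 7, 96950839 to 97064758), had 1.66, 1.63 and 1.35 CPM in the β-elemene libraries, against 8.95, 10.5 and 9.12 CPM in the PBS libraries. This was the largest fall of the 44 genes, at -2.62 (SE 0.17, edgeR adjusted p = 6.79e-09), and it rested on 22 to 27 counts in each β-elemene library. Mars2, the mitochondrial methionine enzyme, had 0.738, 1.37 and 1.04 CPM with β-elemene and 3.83, 3.19 and 3.59 CPM with PBS. It was the lowest member by counts, with 12, 21 and 17 in the β-elemene libraries, and its log2 fold change was -1.75 (SE 0.25).

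Vars2, for valine, had 1.85, 2.41 and 3.25 CPM with β-elemene and 7.09, 6.95 and 8.11 CPM with PBS. Its log2 fold change was -1.56 (SE 0.19). Cars2, for cysteine, had 3.69, 5.08 and 3.004 CPM with β-elemene and 9.45, 9.48 and 10.4 CPM with PBS, a log2 fold change of -1.32 (SE 0.17). Ears2, which charges glutamate and in mitochondria also loads glutamate onto the glutamine tRNA, had 3.44, 3.97 and 3.86 CPM with β-elemene and 7.67, 7.42 and 7.60 CPM with PBS. It fell by 1.01 (SE 0.14). None of these groups overlapped. Tars2, Aars2, Fars2 and Pars2, for threonine, alanine, phenylalanine and proline, fell with log2 fold changes of -0.93 to -0.65.

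The smallest passing changes were those of Yars2, Rars2, Hars2, Mtfmt, Wars2 and Iars2, at -0.38 to -0.27. Mtfmt, which formylates the initiator methionyl-tRNA of mitochondria, had 5.60, 5.79 and 6.25 CPM with β-elemene and 7.05, 7.50 and 7.10 CPM with PBS. Its call (edgeR adjusted p = 0.0469) was lost without any 1 of the 6 libraries, with adjusted p of 0.0527 to 0.140. Wars2, for tryptophan, fell by 0.28 (edgeR adjusted p = 0.0339), and the call was lost without β-elemene replicate 2 or 3 or PBS replicate 1 or 2. Rars2 lost its call without β-elemene replicate 1 or 3, and Yars2 without β-elemene replicate 3 or PBS replicate 1. Sars2, for serine, did not pass at -0.21 (SE 0.15).

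Lars2, the mitochondrial leucine enzyme (chromosome 9, 123366927 to 123462675), stood apart in 1 library. It had 216, 38.1 and 34.3 CPM in β-elemene replicates 1, 2 and 3, against 41.5, 37.4 and 39.3 CPM in PBS replicates 1, 2 and 3. The raw counts were 3511, 585 and 560 with β-elemene and 1071, 964 and 1007 with PBS. In β-elemene replicate 1 the gene stood 5.96-fold above the mean of the other 2 β-elemene libraries. Of the 10454 genes that averaged 1 CPM or more in that group, none was further above the other 2, and no other gene exceeded 4-fold. The log2 fold change over all libraries was 1.29 (SE 0.88, edgeR adjusted p = 0.246), and without β-elemene replicate 1 it was -0.10 (adjusted p = 0.244). What set this library apart was not tested. Lars2 made up 60.2% of the summed CPM of the 18 mitochondrial genes in that library and 14.6% to 19.7% in the other 5. Without Lars2, the sum was 147 ± 9.85 CPM with β-elemene and 219.7 ± 1.26 with PBS (SD, n = 3 each).

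Genes of the steps beside the synthetases were lower too. Of these 5 genes 4 fell and 1 did not pass, with a median log2 fold change of -1.25. This is a share of 80.0%, beside 40.2% of all genes tested. With library size alone all 5 were lower, beside 69.8% of all genes. Mitochondria have no glutaminyl-tRNA synthetase, and the amidotransferase of Gatb, Gatc and Qrsl1 instead converts glutamate to glutamine on the tRNA. Gatc, its small subunit (chromosome 5, 115333242 to 115341161), had 6.46, 7.49 and 5.27 CPM in the β-elemene libraries, against 31.2, 31.2 and 30.2 CPM in the PBS libraries. The PBS libraries lay within about 1 CPM of each other and far above the β-elemene ones, and on the log2 scale the gene fell by 2.27 (SE 0.11; edgeR, adjusted p = 3.52e-10). Qrsl1, the catalytic subunit, had 4.55, 5.08 and 3.99 CPM with β-elemene and 11.5, 10.1 and 10.8 CPM with PBS. It fell by 1.25 (SE 0.13). Gatb had 5.47, 6.58 and 6.13 CPM with β-elemene and 9.61, 10.1 and 8.93 CPM with PBS, a fall of 0.66 (SE 0.12). The 3 subunits thus fell by unequal amounts, with no overlap between the groups for any of them, and their summed CPM was 17.0 ± 1.93 with β-elemene and 51.2 ± 1.22 with PBS (SD, n = 3 each).

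Pstk and Sepsecs act in turn to make selenocysteine on its tRNA. Pstk, the kinase, had 2.52, 1.82 and 1.96 CPM with β-elemene and 5.27, 5.79 and 5.69 CPM with PBS, so it fell by 1.40 on the log2 scale (SE 0.18; edgeR, adjusted p = 8.56e-06). Its locus overlaps Fgfr2 and Ikzf5 on the opposite strand. Sepsecs, the synthase, had 4.31, 3.06 and 3.004 CPM with β-elemene and 5.42, 4.20 and 4.13 CPM with PBS. Those groups overlapped, and the gene did not pass at -0.41 (SE 0.19, edgeR adjusted p = 0.0736), although it passed without β-elemene replicate 1 (-0.58, adjusted p = 0.0270).

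The phenylalanine enzyme of the cytosol is built from equal numbers of an alpha subunit, Farsa, and a beta subunit, Farsb, and their transcripts moved in opposite directions. Farsa (chromosome 8, 84856969 to 84869257) had 68.5, 71.2 and 72.2 CPM in the β-elemene libraries, against 51.9, 52.9 and 54.0 CPM in the PBS libraries. It rose by 0.41 (SE 0.06, edgeR adjusted p = 1.61e-05), but with the upper quartile it was at 0.10 and lost the call, and with library size alone it was at -0.22. Farsb (chromosome 1, 78417958 to 78488897) had 27.1, 34.3 and 26.4 CPM with β-elemene and 60.1, 62.6 and 59.8 CPM with PBS. It fell by 1.06 (SE 0.09, edgeR adjusted p = 1.38e-07), and 2315 bases of its locus overlap Sgpp2 on the opposite strand. The ratio of the 2 transcripts per kb, which no scaling of libraries changes, was 2.82, 2.31 and 3.04 in the β-elemene libraries and 0.963, 0.943 and 1.01 in the PBS libraries. With 3 libraries a group an exact 2-sided permutation test of such a ratio cannot go below p = 0.10, so this separation is described and not tested. Fars2, the single-subunit mitochondrial enzyme, averaged 6.72 ± 1.75 CPM with β-elemene and 10.6 ± 0.655 CPM with PBS (SD, n = 3 each).

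**Figure D3:**
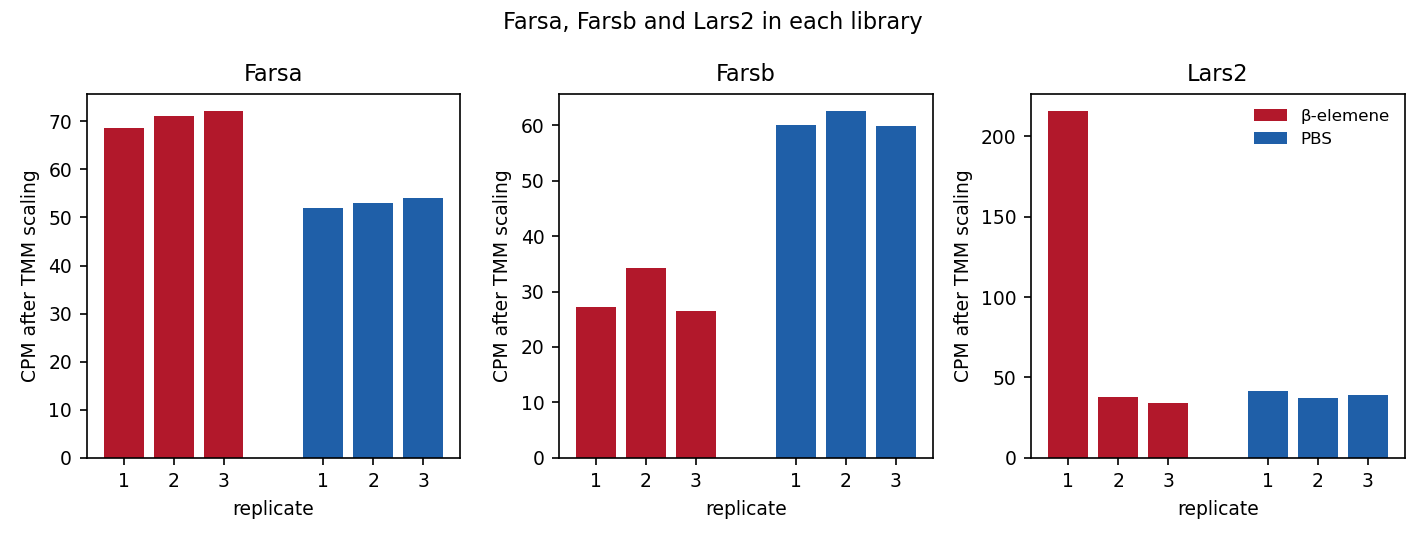
CPM after TMM scaling (vertical axis, from 0) of Farsa, Farsb and Lars2 in each replicate library (horizontal axis), with the 3 β-elemene libraries left of the 3 PBS libraries. Farsa is higher and Farsb lower in every β-elemene library than in any PBS library, and Lars2 reaches 216 CPM in β-elemene replicate 1 against 34.3 to 41.5 CPM in the other 5 libraries.

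Cytosolic and mitochondrial enzymes for the same amino acid could be set side by side in 15 pairs, with Fars2 paired to each phenylalanine subunit. As the quotient of 2 genes in 1 library, the ratio of their CPM per kb does not depend on how libraries are scaled. It was higher in every β-elemene library than in any PBS library for 10 pairs and lower for 5. No such share was computed for other pairs of genes. For single genes, the groups were fully separate for 79.9% of all genes tested. Wars over Wars2 was 36.6, 32.5 and 45.9 in the β-elemene libraries and 6.54, 6.30 and 7.31 in the PBS libraries. Nars over Nars2 was 98.3, 100.2 and 124 with β-elemene and 27.3, 24.1 and 26.2 with PBS, since Nars2 fell further than Nars. The ratio of Aars to Aars2 was 24.2, 20.1 and 17.8 with β-elemene and 10.8, 10.99 and 10.8 with PBS, and that of Cars to Cars2 was 5.89, 3.82 and 7.34 with β-elemene and 2.53, 2.51 and 2.43 with PBS. Rars and Rars2 passed in opposite directions, and their ratio was 13.6, 10.5 and 14.9 with β-elemene and 7.91, 8.94 and 8.23 with PBS. Farsa and Fars2 did so too, with a ratio of 13.5, 9.49 and 15.2 with β-elemene and 5.49, 5.64 and 6.40 with PBS. The Mars ratio hardly separated, with a lowest value of 40.1 with β-elemene and a highest of 39.1 with PBS. The size of each ratio, though not its comparison between groups, hangs on the transcript lengths used. For Mars2 the longest transcript was 11294 bases, far more than its RefSeq locus (chromosome 1, 55237177 to 55240058) spans, so the size of that ratio is uncertain.

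For isoleucine, tyrosine, serine and the beta subunit of the phenylalanine enzyme, the cytosolic gene had the more negative log2 fold change. Iars over Iars2 was 0.975, 1.13 and 1.08 in the β-elemene libraries and 2.51, 2.46 and 2.68 in the PBS libraries, so both transcripts stood at about the same level per kb with β-elemene. Yars over Yars2 was 1.67, 1.94 and 1.999 with β-elemene and 3.76, 3.97 and 4.17 with PBS. Sars over Sars2 was 4.07, 4.30 and 4.87 with β-elemene and 5.59, 5.72 and 6.999 with PBS. Farsb over Fars2 was 4.79, 4.10 and 4.998 with β-elemene and 5.70, 5.98 and 6.36 with PBS. Lars over Lars2 was 0.216, 1.21 and 1.22 with β-elemene and 1.68, 1.74 and 1.61 with PBS, where the first value comes from the library in which Lars2 stood apart. In 13 of the 15 pairs the cytosolic transcript was the more abundant per kb in all 6 libraries. The exceptions were the Iars and Lars pairs.

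**Figure D4:**
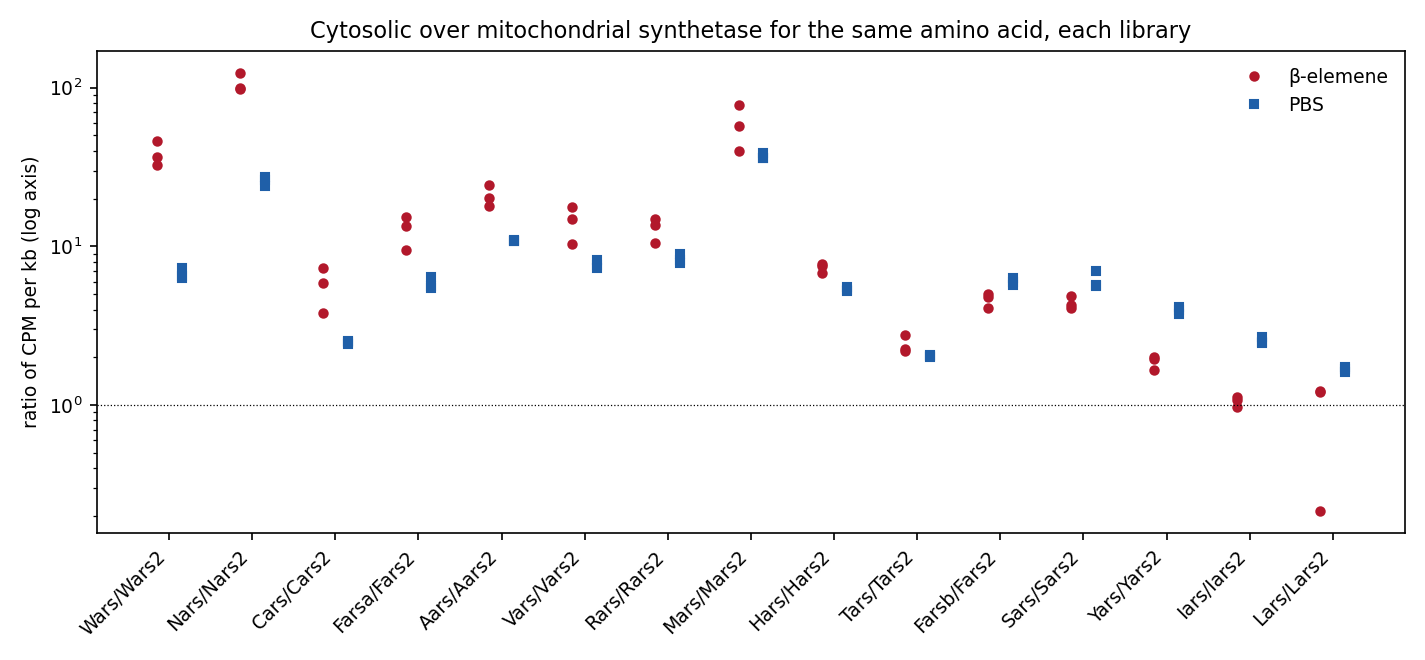
Ratio of the cytosolic to the mitochondrial synthetase transcript for the same amino acid, in CPM per kb on a log axis, for 15 pairs ordered along the horizontal axis by the difference of their log2 fold changes. Each point is 1 library, β-elemene left of PBS. Wars/Wars2 and Nars/Nars2 show the largest separations upward, and the low point of Lars/Lars2 at 0.216 is β-elemene replicate 1.

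The response to uncharged tRNA and amino acid shortage was examined as a list of 37 genes, of which 35 were tested. In this list 14 rose, 18 fell and 3 did not pass, with a median log2 fold change of -0.26. These are shares of 40.0% higher and 51.4% lower, beside 36.6% and 40.2% of all genes tested. With library size alone 8 were higher and 24 lower, or 22.9% and 68.6%, beside 18.9% and 69.8% of all genes. The shares by direction thus lay near those of all genes with library size alone, and both were higher after TMM scaling. Falls of at least 2-fold made up 37.1% of the list, beside 18.3% of all genes tested. A further 8 genes of the list rose at least 2-fold, where 17.0% of all genes tested did so. The groups were fully separate for 97.1% of the list, beside 79.9% of all genes tested. Atf4, the list's central transcription factor, stood at 221 CPM with β-elemene and 202 CPM with PBS (log2 fold change 0.13, SE 0.05, edgeR adjusted p = 0.0456), and at -0.51 with library size alone. Eif2ak4, which encodes GCN2, the kinase that senses uncharged tRNA, stood at 7.54 CPM with β-elemene and 21.4 CPM with PBS and fell by 1.51 (SE 0.11). The largest change in the list was the rise of Cth, which makes cysteine from cystathionine, but it rested on 14, 12 and 27 counts with β-elemene and 1, 1 and 2 counts with PBS. Of the list's 7 amino acid carriers or their subunits 5 fell and 2 rose. Those that fell furthest were Slc6a9, a glycine carrier, at -3.88, Slc7a5, a carrier of large neutral amino acids that include tryptophan, isoleucine and tyrosine, at -2.50, and Slc1a5, a glutamine carrier, at -2.32. The carriers that rose were Slc7a11, the cystine carrier, by 1.26 (0.62 with library size alone), and Slc3a2, the shared heavy chain, by 0.24 (-0.40 with library size alone). Atf4, Eif2ak4, Cth, Slc7a11 and Slc3a2 were picked after their values were seen. Eif2ak2, the interferon-induced kinase PKR, rose by 3.33 (SE 0.09), and Ppp1r15b, a cofactor that removes the eIF2 phosphate, rose to 503 CPM with β-elemene, against 126 CPM with PBS.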

How the data were processed

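Bulk RNA from 3 β-elemene and 3 PBS macrophage cultures was sequenced after a stranded poly(A) preparation, per the labels' protocols. Per the submitters' processing notes, the aligner was HISAT2 2.2.1.0 and the genome was mouse build GRCm38.p6, with mm10 named too. Counts of reads for each gene were deposited as whole numbers without normalization, and no source used here gives the counting tool or its strand setting. Of the 44 genes, 14 overlap a protein-coding gene in GENCODE vM21, 12 of them on the opposite strand, and their values are uncertain to that extent.

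Of 21878 genes, 6562 had no count. The 11459 that passed edgeR's filterByExpr (10 counts, 15 in all) were fitted with edgeR 4.0.16 in R 4.3.3, by the robust quasi-likelihood test on group with TMM scaling and Benjamini-Hochberg adjustment at 0.05. The procedure was also run on simulated counts. Far fewer genes were changed there than passed here, so that run cannot test the scaling. Alternatives were other scalings and filters, DESeq2 1.42.0, limma 3.58.1 (voom), a replicate block, other compartment splits and leaving out each library. CPM per kb used the longest protein-coding transcript. Values per library are given for genes that passed with a log2 change of at least 1, for the steps beside the synthetases and for Farsa with Farsb. For pairs passing in opposite directions the ratio is given per library. From other lists up to 3 passing genes with the largest changes among those with a mean of at least 1 CPM over all libraries are named, with up to 2 of the opposite sign. Lars2, given per library too, was chosen after its values were seen. The genes and lists were chosen with earlier results of these data known. The labels state no batch. The depth of 18916844 to 20729887 counts a library limits the precision of genes near 1 CPM. Proteins of the pairs were not analysed here, and the values of 1 mitochondrial synthetase are not reported here.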

Additional observations from a re-analysis of the deposited data

How the results depend on the processing

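Of the 38 genes that passed, 31 kept call and direction under every alternative tried, and 6 (Cars, Farsa, Mtfmt, Rars2, Wars2 and Yars2) lost the call under at least 1. Rars, the other gene, turned round: it was at -0.054 with upper quartile scaling and -0.38 with library size alone. Those scalings also gave -0.24 and -0.56 for Aars and -0.22 and -0.54 for Hars, and library size alone gave -0.22 for Farsa. Each lowers the typical gene, by 0.32 and 0.64 on the log2 scale. With either scaling 2 cytosolic synthetases were higher, and with library size alone 2166 of all genes were higher and 8003 lower. Leaving out 1 library at a time gave 4021 to 4296 genes higher and 4347 to 4477 lower, 4 cytosolic synthetases higher and 13 to 14 lower, and 12 to 15 mitochondrial genes lower. Lars2 ranged between -0.10, without β-elemene replicate 1, and 1.71. No clear pairing by replicate number was seen. Same-numbered libraries had correlations of -0.016, 0.089 and 0.038 in their deviations, and the others had -0.089 to 0.062. With 3 libraries a group, such values cannot exclude that same-numbered cultures shared a mouse or a preparation. The fit with the replicate block gave 4188 genes higher and 4605 lower, 4 cytosolic synthetases higher and 14 lower, and 15 mitochondrial genes lower, without Mtfmt (adjusted p = 0.0753). Low counts limit Mars2, Tarsl2 and Nars2, which had 50 to 74 counts over the 3 β-elemene libraries.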

Other observations

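Genes that make, trim and use tRNA were examined as further lists beside the same background, in which 40.2% of all genes tested fell and 36.6% rose. Of 21 tested genes of tRNA end processing and export, 13 fell, 4 rose and 4 did not pass, with a median log2 fold change of -0.57. Rpp40, a subunit of the nuclease that trims the 5′ end of tRNA, averaged 1.32 ± 0.442 CPM with β-elemene and 5.32 ± 0.751 CPM with PBS (SD, n = 3 each). It fell by 2.01 on the log2 scale. Of 20 genes of RNA polymerase III and its factors, which transcribe tRNA genes, 10 fell, 6 rose and 4 did not pass, with a median of -0.19. Polr3g averaged 0.960 ± 0.0352 CPM with β-elemene and 10.2 ± 0.785 CPM with PBS and fell by 3.40, while Polr3c averaged 77.3 ± 2.67 CPM with β-elemene and 33.3 ± 0.175 CPM with PBS and rose by 1.22, or by 0.58 with library size alone.

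Of 5 genes that edit mischarged tRNA, 1 rose, 2 fell and 2 did not pass. Dtd1, which removes D-amino acids from tRNA, rose by 1.19 (0.55 with library size alone), and Prorsd1, of a family that clears mischarged alanine, fell by 1.56. Of 9 cytosolic elongation and release factors, 1 rose, 4 fell and 4 did not pass. Eef2k, the kinase that slows elongation, averaged 0.935 ± 0.198 CPM with β-elemene and 13.5 ± 0.822 CPM with PBS and fell by 3.84, and Etf1, the release factor, rose by 0.62 but was at -0.02 with library size alone. Of 10 mitochondrial translation factors 6 fell, 4 did not pass and none was called higher by edgeR, with a median of -0.44.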
